A study of Mus musculus with 22 samples.

Results

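Retinol and vitamin A metabolism was followed through 8 genes, Adh1, Aldh1a1, Rbp2, Lrat, Bco1, Isx, Dhrs3 and Rdh7, in mouse intestinal tissue across a cross of dietary fibre with exposure to PFOS (perfluorooctanesulfonic acid, a persistent fluorinated surfactant). They were chosen by symbol, and all 8 were found among the 46603 genes of the deposited tables. The choice was made with measured values of these libraries in view, and which values led to it is not recorded. Fold changes and p-values of the 8 genes are therefore given as descriptions and not as independent evidence.

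RNA was sequenced from wild-type male C57BL/6 mice, 7 weeks old at the start and fed for 7 weeks. Fibre made up 8% of every diet by weight, and fat, carbohydrate and protein supplied 35%, 45% and 20% of its energy. Cellulose was given to the groups named Control (n = 4) and PFOS (n = 4), inulin to Inulin (n = 3) and Inulin_PFOS (n = 3), and pectin to Pectin (n = 4) and Pectin_PFOS (n = 4). Exposed mice drank water dosed to give 3 µg of PFOS per kg each day. Of the treatment labels, one that names PFOS is the same for exposed and unexposed samples, and the group name, given by another and by the title, was used. The titles call the replicates biological but do not say that each is a separate animal, and p-values cover only the spread between them. Libraries are numbered here by that replicate number, which is not always the number in the sample name. Control 4 is named Control_5, PFOS 3 and 4 are PFOS_4 and PFOS_5, Inulin 2 and 3 are Inulin_4 and Inulin_5, and Inulin_PFOS 2 and 3 are Inulin_PFOS_3 and Inulin_PFOS_5. Pectin 4 is Pectin_5 and Pectin_PFOS 4 is Pectin_PFOS_5.

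Vitamin A enters the enterocyte as carotenoid or as retinol. BCO1 cleaves beta-carotene to retinal, and RBP2 carries retinol and retinal inside the cell. LRAT esterifies retinol for export in chylomicrons, while alcohol and retinol dehydrogenases oxidise retinol to retinal and aldehyde dehydrogenases oxidise retinal to retinoic acid. Retinoic acid acts through nuclear receptors, and in the intestine it is known to induce the homeobox repressor ISX, which lowers Bco1 and Scarb1.

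Library totals ran from 17613297 to 20261357 counts, and all 8 genes passed the filter on low counts together with 15763 genes in all. The ileal bile acid binding gene Fabp6 stood at 1428 to 5063 CPM (library-scaled counts, TMM) in the 22 libraries. The colonic markers Car1, Aqp8 and Hoxb13 were under 1 CPM throughout, and the summed hepatocyte and exocrine pancreas markers reached 2.44 and 0.329 CPM. Of 7 listed markers of the proximal small intestine, Gata4 was above 10 CPM in 4 libraries (PFOS 4, Pectin 2, Pectin_PFOS 3 and Pectin_PFOS 4) and at 0.369 to 4.22 CPM in the other 18, and Lct was apart in the same way. The other 5 did not separate these libraries, with Fabp1 at 15.3 to 105.3 CPM in the 4 against 5.68 to 52.5, Slc46a1 at 6.78 to 9.18 against 4.89 to 20.4, Cybrd1 at 1.01 to 1.92 against 0.527 to 3.21, Onecut2 at 0.431 to 0.717 against 0.186 to 1.60 and Pdx1 at most 0.111 CPM in any library. The 4 libraries were singled out by Gata4 after the values were seen. The library Pectin_PFOS 1 had the highest summed enterocyte markers (95610 CPM) and Pectin 4 the lowest (14710 CPM). No label names a batch or the gut segment, and the tissue was taken whole.

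On GRCm38, as placed in the deposited tables, Adh1 (ENSMUSG00000074207) spans chr3:138260991-138290698, Aldh1a1 (ENSMUSG00000053279) chr19:20601961-20643462, Rbp2 (ENSMUSG00000032454) chr9:98486115-98509781 and Lrat (ENSMUSG00000028003) chr3:82892579-82903973. Bco1 (ENSMUSG00000031845) spans chr8:117095854-117133720, Isx (ENSMUSG00000031621) chr8:74873173-74893506, Dhrs3 (ENSMUSG00000066026) chr4:144892827-144928209 and Rdh7 (ENSMUSG00000040134) chr10:127884028-127888817. Lrat and Rdh7 are on the minus strand and the other 6 on the plus strand. Isx, Dhrs3 and Rdh7 overlap no other annotated gene, while Rbp2 (Gm37113) and Bco1 (the pseudogene Gm20694) overlap one on the same strand, whose reads strand cannot separate. Genes on the opposite strand overlap Adh1 (Gm16559), Aldh1a1 (C730002L08Rik and Gm6684) and Lrat (Rbm46os). Whether counting used strand is not stated, so reads of such pairs may not be told apart. Overlaps were taken from spans of a GRCm38 annotation, in which Aldh1a1 runs from 20492715 to 20643465 and so begins upstream of the deposited start. Whether its 2 overlaps reach the deposited span was not checked.

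Start regions are shown for the 3 genes called in the tests below (Adh1, Isx and Dhrs3) and for Rbp2 and Bco1, which hold several motif matches, as RefSeq gives them on GRCm38.p6. Each run lies within the 250 bases before a RefSeq start, without bases that the annotation places in an exon. For that reason the Adh1 run ends 92 bases before its RefSeq start. The Adh1 and Rbp2 runs lie inside the deposited spans of those genes, since their RefSeq starts are downstream of the deposited ones. Capitals mark matches, on either strand, to AGGTCA (a nuclear receptor element), TTTATNG (CDX2) or AGATAA (bound by GATA factors). Adh1 lies at chr3:138277335-138277493, Isx at chr8:74872924-74873172, Dhrs3 at chr4:144892577-144892826, Rbp2 at chr9:98490287-98490536 and Bco1 at chr8:117095615-117095853, all on the plus strand.
Adh1: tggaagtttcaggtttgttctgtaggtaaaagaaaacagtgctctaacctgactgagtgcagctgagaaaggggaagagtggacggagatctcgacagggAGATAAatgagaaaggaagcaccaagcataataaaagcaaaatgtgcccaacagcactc
Isx: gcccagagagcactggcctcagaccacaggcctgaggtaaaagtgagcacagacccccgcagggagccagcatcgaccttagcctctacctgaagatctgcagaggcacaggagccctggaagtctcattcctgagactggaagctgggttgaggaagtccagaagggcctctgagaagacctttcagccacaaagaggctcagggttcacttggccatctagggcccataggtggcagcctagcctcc
Dhrs3: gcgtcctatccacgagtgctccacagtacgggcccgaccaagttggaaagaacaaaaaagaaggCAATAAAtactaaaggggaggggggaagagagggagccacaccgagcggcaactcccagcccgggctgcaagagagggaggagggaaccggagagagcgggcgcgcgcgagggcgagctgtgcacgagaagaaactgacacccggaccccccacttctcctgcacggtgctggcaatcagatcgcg
Rbp2: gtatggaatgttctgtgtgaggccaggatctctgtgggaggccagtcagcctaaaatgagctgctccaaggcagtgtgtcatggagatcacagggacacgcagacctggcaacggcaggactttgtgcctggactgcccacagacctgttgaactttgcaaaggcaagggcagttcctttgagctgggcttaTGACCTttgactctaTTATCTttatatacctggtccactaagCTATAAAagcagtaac
Bco1: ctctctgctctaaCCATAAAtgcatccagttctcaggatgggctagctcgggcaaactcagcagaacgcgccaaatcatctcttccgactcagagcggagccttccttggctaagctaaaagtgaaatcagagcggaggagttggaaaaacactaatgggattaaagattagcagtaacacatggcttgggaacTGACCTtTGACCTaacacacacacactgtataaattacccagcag
AGGTCA was found in 3 of the 8 genes (Rbp2, Bco1 and Rdh7) and in 4607 of 32851 windows of this length. TTTATNG was found in 3 (Rbp2, Bco1 and Dhrs3) against 9.81% of windows, and AGATAA in 3 (Adh1, Aldh1a1 and Rbp2) against 9.99%. CAAAGTCCA (HNF4), TGATAA (bound by GATA factors) and TAATTA (homeobox core) were found in none of the 8 and in 0.384%, 7.94% and 4.84% of windows. The Bco1 run holds a pair of such elements, 56 and 49 bases before the start, with a single base between them. That spacing, AGGTCANAGGTCA, was searched after the sequence was seen and occurs in 11 windows (0.0335%), of which Bco1 is the only one among the 8 genes. The 8 genes are counted by gene and the background by window, and Aldh1a1, Dhrs3 and Rdh7 have more than a single window each. Their shares are therefore not on the same footing. A match describes letters and not a bound site.

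The genes differed widely in abundance. Per length, Rbp2 was the most abundant, with a mean of 1456 TPM (length-scaled abundance) over the 22 libraries, followed by Aldh1a1 at 211.7 and Isx at 90.9 TPM. Rdh7, Adh1 and Dhrs3 averaged 37.2, 36.9 and 30.99 TPM, Bco1 10.9 TPM and Lrat 2.67 TPM. Bco1 and Rdh7 varied most between libraries, with a highest CPM 28.1 and 25.1 times the lowest. Isx and Dhrs3 varied least, by 2.62 and 2.60 times. By group mean CPM, the order ran from Inulin_PFOS (60.1) through PFOS (57.6), Pectin_PFOS (41.7), Control (30.2) and Pectin (26.1) to Inulin (24.9) for Adh1. Only the step from Pectin_PFOS to Control was free of overlap, and for the other 7 genes every pair of neighbours in the order overlapped. Inulin had the highest mean of Lrat, Bco1 and Aldh1a1, and Inulin_PFOS the lowest of Lrat, Rdh7 and Rbp2. Pectin_PFOS had the highest mean of Isx and Dhrs3, PFOS of Rdh7 and Pectin of Rbp2. In bulk tissue, fewer cells of a type and less RNA per cell cannot be told apart.

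Adh1, an alcohol dehydrogenase that oxidises retinol among other alcohols, had a higher group mean with PFOS than without it on each of the 3 diets, and it was called in the average over them. Control libraries measured 30.6, 35.8, 21.2 and 33.3 CPM, and PFOS libraries 34.9, 88.7, 34.3 and 72.5 CPM. Inulin libraries measured 26.2, 23.0 and 25.5 CPM against 50.6, 50.5 and 79.2 CPM in Inulin_PFOS. Pectin libraries measured 22.9, 30.8, 30.5 and 20.4 CPM against 38.5, 44.7, 43.9 and 39.9 CPM in Pectin_PFOS. The exposed and unexposed ranges did not overlap on inulin or on pectin. On cellulose they overlapped (means of 57.6 ± 27.3 in PFOS and 30.2 ± 6.41 CPM in Control, SD, n = 4 each), since PFOS 1 and PFOS 3 stood near the controls while PFOS 2 and PFOS 4 stood above them.

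Averaged over the 3 diets, Adh1 was 1.94-fold higher with PFOS, a log2 fold change of 0.96 ± 0.16 (SE) with an adjusted p of 0.0104 (edgeR quasi-likelihood test, Benjamini-Hochberg over 15763 genes). It was the only one of the 8 genes called in that contrast, in which 0.159% of all genes were called and 0.108% were called higher. Within diets the log2 fold change was 0.93 ± 0.26 on cellulose (adjusted p = 0.822), 1.27 ± 0.30 on inulin (0.0735) and 0.68 ± 0.26 on pectin (0.0665), none past the threshold in edgeR. The differences between these effects were small against their errors, 0.34 ± 0.39 for inulin minus cellulose and −0.25 ± 0.36 for pectin minus cellulose (adjusted p = 0.668 and 0.809 in edgeR). Leaving out each of the 22 libraries in turn kept the averaged log2 fold change between 0.86 and 1.02, and Adh1 was called in all 22 of those fits. Without the 4 libraries above 10 CPM of Gata4 it was 0.94, and edgeR's adjusted p was 0.0994. None of the 12 enterocyte markers was called in the averaged contrast, 8 of them having a positive fold change (median log2 0.13). The 5 T cell markers all had a positive one (median 0.56) and the 4 B cell markers a negative one (median −1.999), with none called, and their part in the Adh1 value was not tested. Summed T cell markers ran from 11.1 to 80.7 CPM in Control, 29.1 to 173.5 in PFOS, 34.9 to 100.6 in Inulin, 162.0 to 272.1 in Inulin_PFOS, 22.2 to 229.1 in Pectin and 134.5 to 233.9 CPM in Pectin_PFOS. Summed B cell markers ran from 169.5 to 836.1 CPM in Control, 63.4 to 342.7 in PFOS, 56.4 to 740.7 in Inulin, 482.1 to 834.5 in Inulin_PFOS, 733.5 to 1610 in Pectin and 54.3 to 347.1 CPM in Pectin_PFOS.

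**Figure D1:**
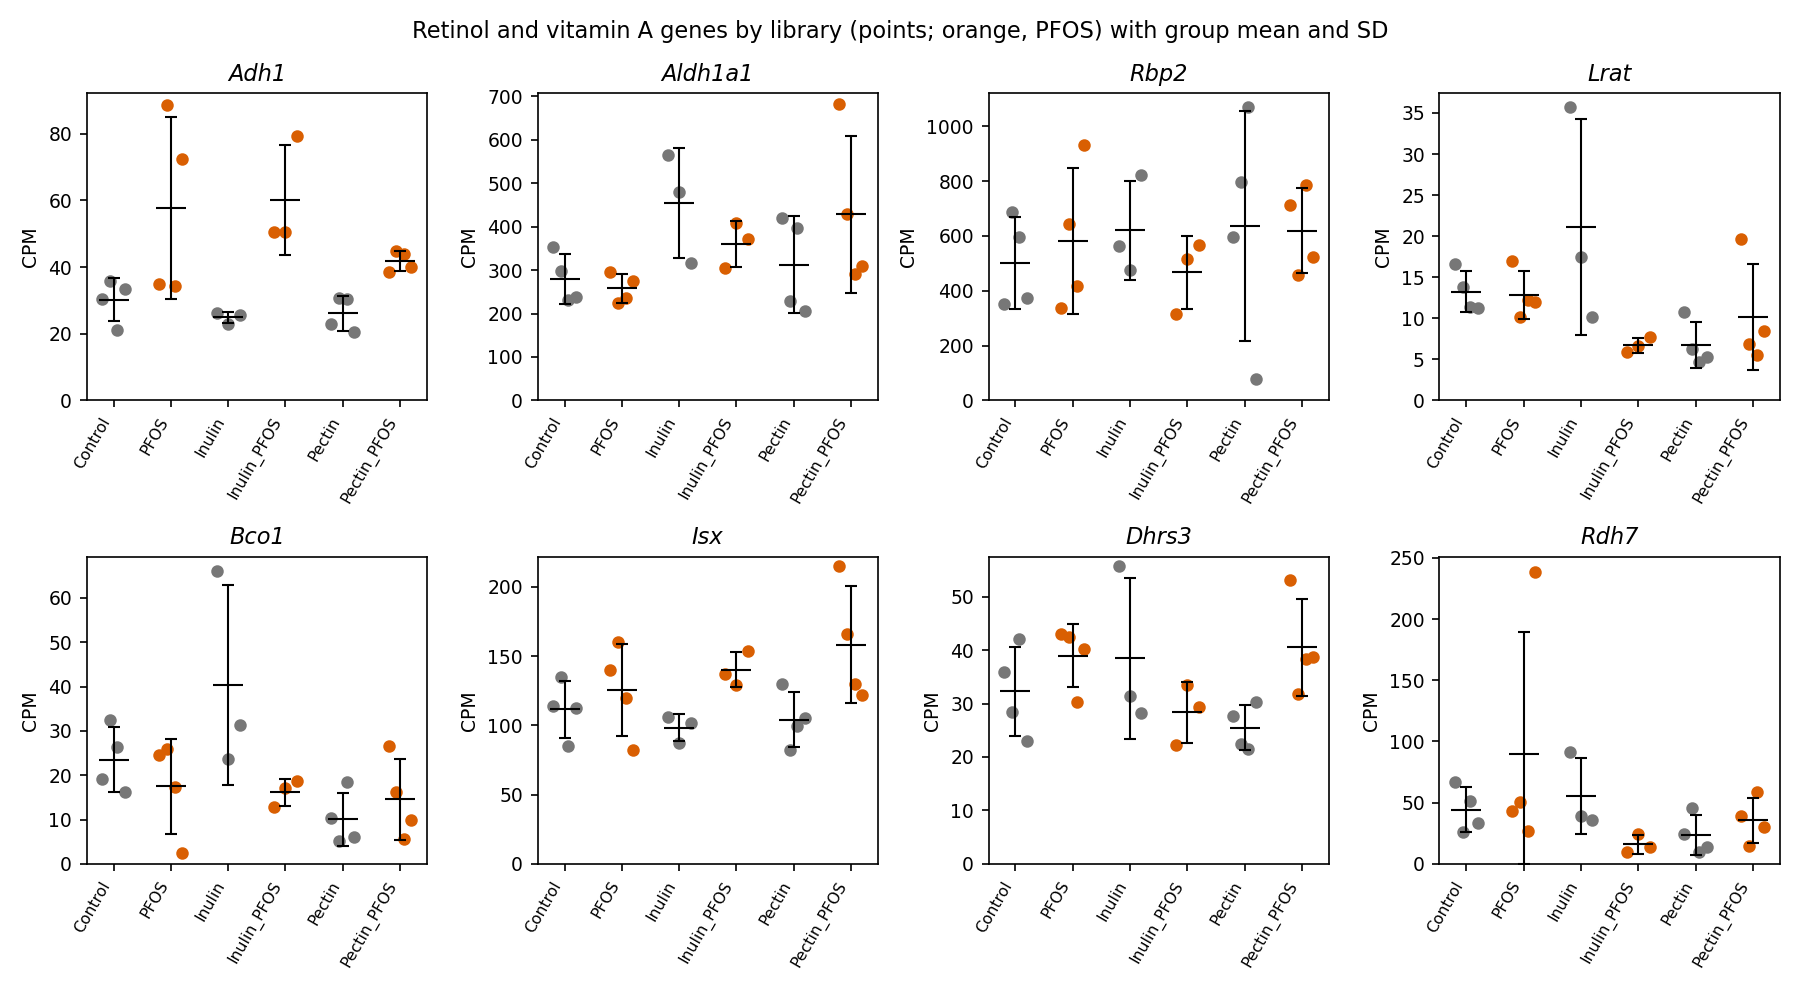
CPM (TMM-scaled, linear axes from 0) of each gene in each of the 22 libraries, with points in orange for PFOS groups and in grey for unexposed groups, and bars for the group mean and SD. Adh1 sits at 38.5 CPM or above in every Inulin_PFOS and Pectin_PFOS library and at 35.8 CPM or below in every unexposed library, while Rdh7 has a single high point at 239 CPM in PFOS (its lower SD bar passes 0 and is not drawn below it).

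Rdh7, a microsomal retinol dehydrogenase of the short-chain family, was set apart by a single PFOS library. Control libraries held 67.1, 25.7, 51.4 and 33.1 CPM, and PFOS libraries 43.3, 50.4, 27.1 and 239 CPM. Inulin libraries held 91.4, 39.0 and 35.9 CPM against 9.52, 24.5 and 13.49 CPM in Inulin_PFOS. Pectin libraries held 24.3, 45.7, 9.89 and 13.98 CPM against 39.2, 14.8, 58.4 and 30.2 CPM in Pectin_PFOS. Every Inulin_PFOS library was below every Inulin and every PFOS library, and the remaining pairs described here overlapped. The log2 fold change was −1.81 ± 0.74 for Inulin_PFOS against Inulin (adjusted p = 0.205) and −2.51 ± 0.73 for Inulin_PFOS against PFOS (0.0672), neither called by edgeR. Without PFOS 4 the second value was −1.37 with an edgeR adjusted p of 0.172. For PFOS against Control the log2 fold change was 1.02 ± 0.62 (adjusted p = 0.822 in edgeR), and without PFOS 4 it was −0.11. Of the 31-base words of Rdh7 transcripts, 20.3% also occur in other genes, mostly the pseudogene Rdh18-ps, and its expected count was fractional in 11 of 22 libraries. Its level is uncertain to that extent.

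Dhrs3, which reduces retinal back to retinol, was higher in Pectin_PFOS than in Pectin. Control libraries had 35.8, 28.5, 42.0 and 23.0 CPM, and PFOS libraries 43.0, 42.4, 30.2 and 40.3 CPM. Inulin libraries had 55.7, 31.4 and 28.2 CPM, and Inulin_PFOS libraries 22.2, 33.5 and 29.4 CPM. Pectin libraries had 27.7, 22.4, 21.4 and 30.4 CPM against 53.2, 31.7, 38.4 and 38.7 CPM in Pectin_PFOS. In CPM only the pectin pair was free of overlap, by the narrow gap between 30.4 and 31.7 CPM. In TPM that pair overlapped, with Pectin reaching 28.3 and Pectin_PFOS falling to 26.3 TPM. Inulin_PFOS (15.4 to 27.3 TPM) lay below PFOS (32.6 to 53.1 TPM) by that measure. Between Pectin_PFOS and Pectin, Dhrs3 was 1.59-fold higher, a log2 fold change of 0.67 ± 0.23 with an adjusted p of 0.0438 in edgeR. The effect was 0.27 ± 0.23 on cellulose and −0.44 ± 0.26 on inulin, and the pectin effect minus the cellulose effect was 0.40 ± 0.32 (adjusted p = 0.631 in edgeR).

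Isx, the retinoic acid-induced homeobox repressor, was the other gene called on pectin. Control libraries gave 114, 135, 84.8 and 112 CPM, and PFOS libraries 140, 160, 120 and 82.0 CPM. Inulin libraries gave 106, 87.5 and 102 CPM against 137, 129 and 154 CPM in Inulin_PFOS. Pectin libraries gave 130, 82.5, 99.5 and 105 CPM against 215, 166, 130 and 122 CPM in Pectin_PFOS. Exposed libraries were all above unexposed ones on inulin, and on pectin the ranges met at 122 to 130 CPM. In TPM the order was the other way round. The pectin ranges were apart, at 54.9 to 77.7 in Pectin and 88.2 to 131.7 in Pectin_PFOS. The inulin ranges overlapped, at 66.8 to 84.2 in Inulin and 81.9 to 95.4 TPM in Inulin_PFOS. Separation of these groups for Isx therefore depends on the measure. The log2 fold change was 0.60 ± 0.21 on pectin, 1.52-fold (adjusted p = 0.0478), and 0.51 ± 0.24 on inulin (0.263) and 0.17 ± 0.21 on cellulose (0.891), by edgeR. Averaged over the diets it was 0.43 ± 0.13, with an adjusted p of 0.172 in edgeR.

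The pectin calls stood beside a large shift in the whole tissue. Mitochondrial transcripts took 2.85% to 3.51% of counts in Pectin_PFOS and 3.88% to 7.36% in Pectin, and 12927 to 14385 against 14403 to 14935 genes were detected, with no overlap in either. Between Pectin_PFOS and Pectin 2 of the 8 genes were called, both higher, where 20.8% of all genes were called and 11.4% were called higher. Their groups did not overlap in CPM for 2 of 8 genes, against 25.6% of all genes, so neither share is a result about these 8. The median log2 fold change was 0.59 for the 8 genes and −0.06 for all genes tested. Of the 12 enterocyte markers, 6 were called higher (Vil1, Alpi, Treh, Anpep, Mep1a and Slc5a1), 4 of 6 fibroblast markers lower, and all 4 Paneth markers lower. Summed enterocyte markers ran from 48970 to 95610 CPM in Pectin_PFOS and from 14710 to 59720 CPM in Pectin, and summed fibroblast markers from 110.5 to 208.7 and from 396.9 to 536.0 CPM. The part of the markers, mitochondrial share and detected genes in the Dhrs3 and Isx values was not tested. Leaving out Pectin_PFOS 1 gave 0.51 (adjusted p = 0.158) for Dhrs3 and 0.42 (0.192) for Isx in edgeR. Over the 22 omissions, Dhrs3 was called in 14 and Isx in 10. The call of Dhrs3 was lost without PFOS 1, Inulin_PFOS 3, Pectin 1, 2 or 3, or Pectin_PFOS 1, 3 or 4, with an adjusted p of at most 0.158 in edgeR. That of Isx was lost without PFOS 1 or 3, Inulin 2 or 3, any Inulin_PFOS library, Pectin 2, 3 or 4, or Pectin_PFOS 1 or 2, with an adjusted p of at most 0.192 in edgeR. Without the 4 libraries above 10 CPM of Gata4 neither was called. That omission takes out Pectin_PFOS 3 and 4, Pectin 2 and PFOS 4, and calls over all genes fell from 3277 to 516. The smaller number of libraries and their Gata4 level cannot be told apart in that loss. Scaling by library totals in place of TMM lowered them to 0.43 (adjusted p = 0.223) and 0.37 (0.179) in edgeR, and it moved the median of all genes to −0.27.

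**Figure D2:**
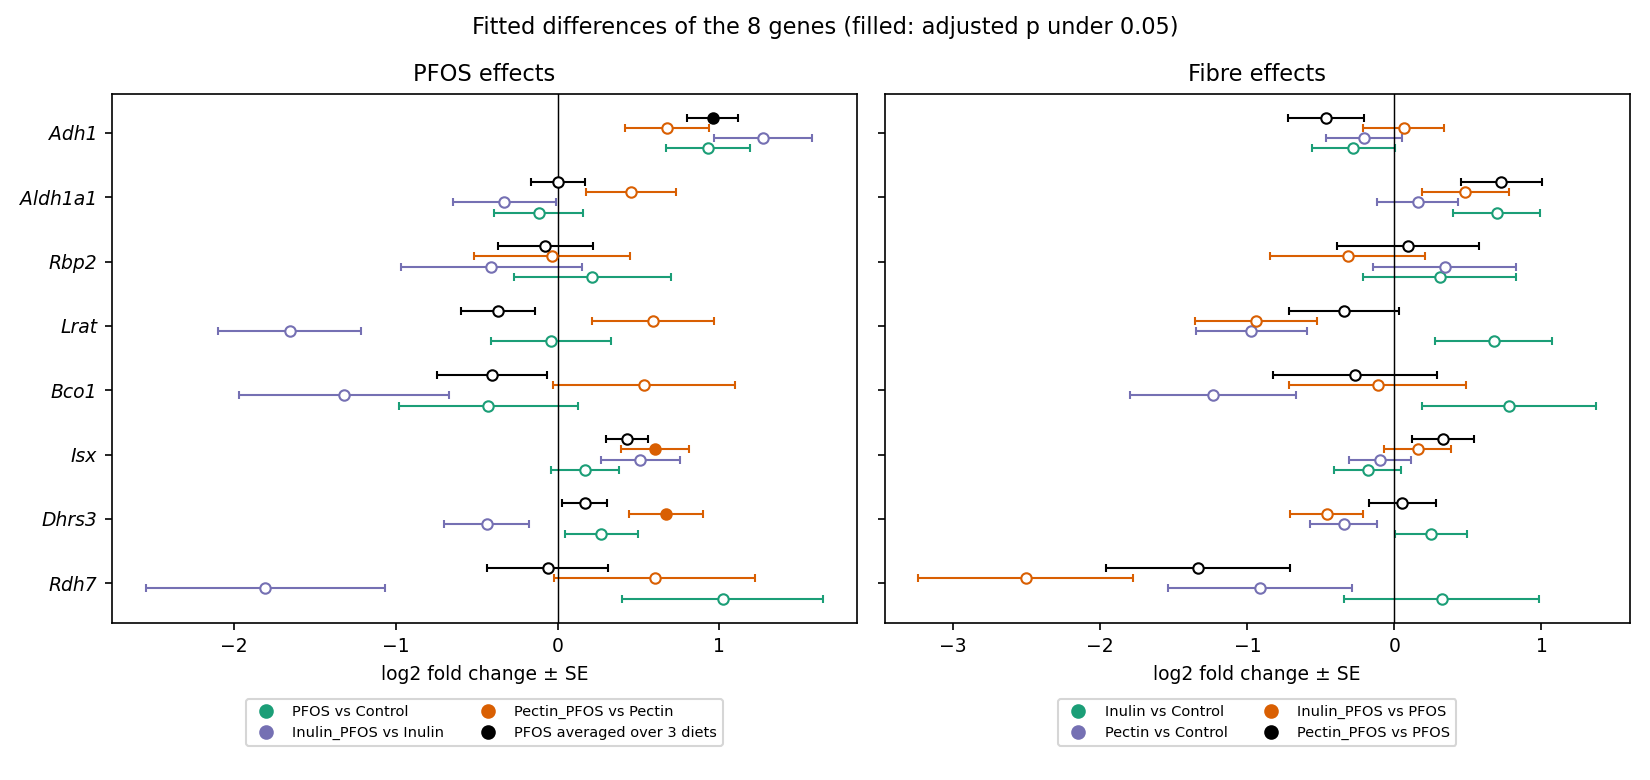
Log2 fold change ± SE of each gene for the PFOS contrasts (left) and the fibre contrasts (right), with filled points where edgeR's adjusted p was under 0.05. The filled points are Adh1 in the averaged PFOS contrast and Dhrs3 and Isx in Pectin_PFOS against Pectin, and the widest bars belong to Rdh7 and Bco1.

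Bco1, the carotenoid cleavage enzyme, was lowest in a PFOS library. Control libraries showed 19.1, 32.5, 26.5 and 16.1 CPM, and PFOS libraries 24.5, 25.8, 17.3 and 2.35 CPM. Inulin libraries showed 66.1, 23.7 and 31.4 CPM against 12.7, 17.1 and 18.7 CPM in Inulin_PFOS. Pectin libraries showed 10.4, 5.21, 18.4 and 6.11 CPM, and Pectin_PFOS libraries 26.5, 16.2, 5.69 and 9.81 CPM. Inulin_PFOS lay wholly below Inulin, and the other pairs overlapped, Pectin and Control by the single value of 18.4 CPM. The log2 fold change was −1.32 ± 0.65 for Inulin_PFOS against Inulin (adjusted p = 0.278) and −1.23 ± 0.57 for Pectin against Control (0.251), neither called by edgeR. The 4 libraries above 10 CPM of Gata4 spanned 2.35 to 9.81 CPM of Bco1, and the other 18 spanned 6.11 to 66.1 CPM. Without those 4 libraries Bco1 gave −1.34 and −1.01 in these comparisons, as log2 fold changes.

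**Figure D3:**
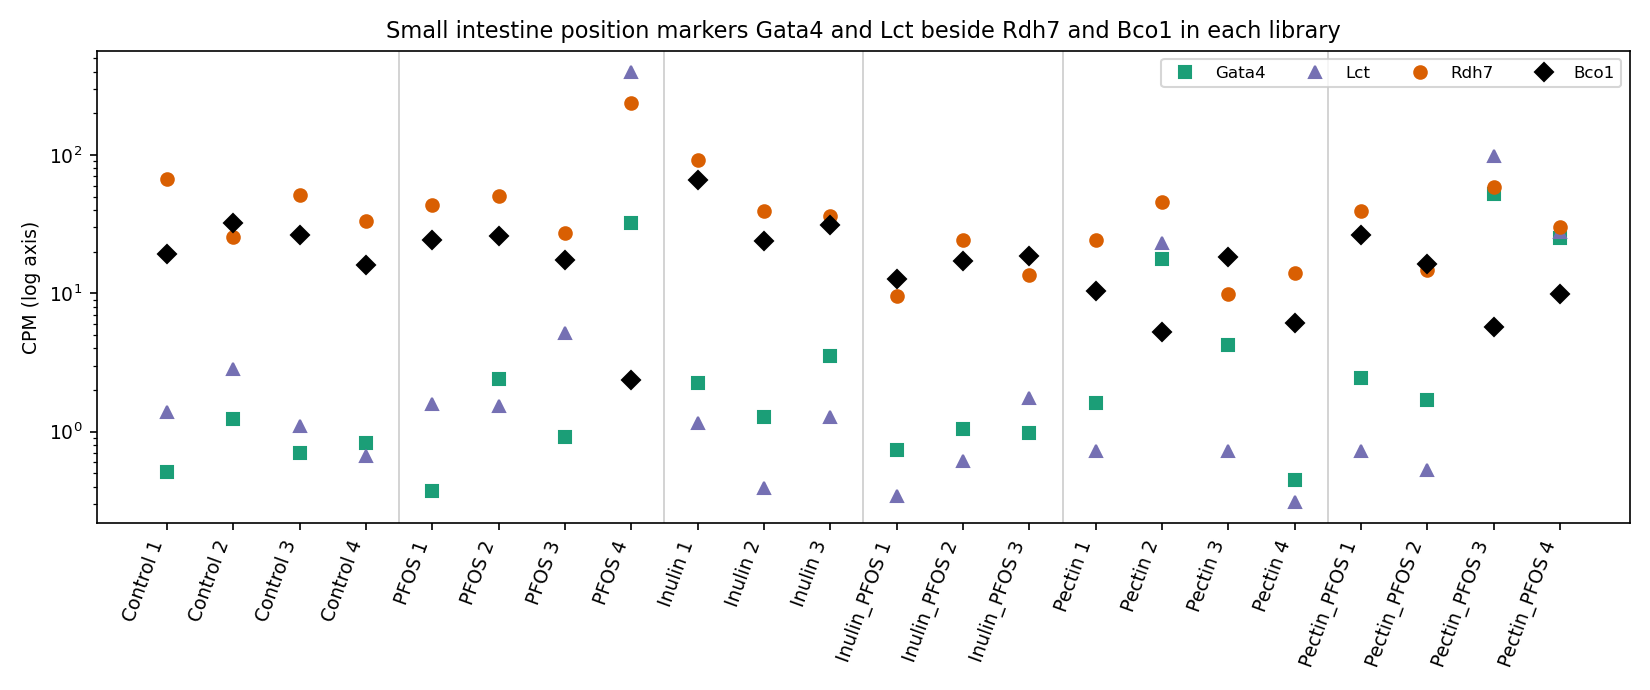
CPM on a log axis of Gata4 and Lct, markers of the proximal small intestine, beside Rdh7 and Bco1 in each of the 22 libraries. PFOS 4, Pectin 2, Pectin_PFOS 3 and Pectin_PFOS 4 have Gata4 at 17.6 to 52.1 CPM and Lct at 23.2 to 397 CPM, and PFOS 4 combines the highest Rdh7 (239 CPM) with the lowest Bco1 (2.35 CPM).

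Lrat, which makes retinyl esters, was low in Inulin_PFOS and Pectin. Control libraries read 16.6, 13.8, 11.3 and 11.2 CPM, and PFOS libraries 17.0, 10.2, 12.2 and 11.98 CPM. Inulin libraries read 35.8, 17.5 and 10.2 CPM against 5.83, 6.57 and 7.69 CPM in Inulin_PFOS. Pectin libraries read 10.8, 6.22, 4.61 and 5.31 CPM, and Pectin_PFOS libraries 19.6, 6.91, 5.58 and 8.45 CPM. Inulin_PFOS was wholly below Inulin and PFOS, and Pectin wholly below Control, the latter by the step from 10.8 to 11.2 CPM. The log2 fold change was −1.66 ± 0.44 for Inulin_PFOS against Inulin (adjusted p = 0.0967) and −0.97 ± 0.38 for Pectin against Control (0.171), neither called by edgeR. Inulin 1, at 35.8 CPM, weighed on the first of these, which was −1.07 without it (adjusted p = 0.513 in edgeR). Without Inulin 3, the lowest of its group, the value was −1.99 and was called (adjusted p = 0.0473 in edgeR). The PFOS effect on inulin minus that on cellulose was −1.62 ± 0.57 (adjusted p = 0.144 in edgeR).

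Rbp2, the cellular retinol carrier of the enterocyte, had no call in any of the 10 comparisons. Control libraries stood at 350, 687, 596 and 372 CPM, and PFOS libraries at 336, 642, 418 and 932 CPM. Inulin libraries stood at 564, 474 and 824 CPM, and Inulin_PFOS libraries at 317, 517 and 567 CPM. Pectin libraries stood at 597, 795, 1070 and 78.4 CPM, and Pectin_PFOS libraries at 714, 457, 784 and 523 CPM. All group ranges met, and Pectin 4, the library with the lowest summed enterocyte markers, was far below the rest. Averaged over diets, the log2 fold change with PFOS was −0.08 ± 0.29.

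Aldh1a1, which oxidises retinal to retinoic acid, was not called with PFOS in the average over diets, at a log2 fold change of 0.00 ± 0.17. Control libraries contained 354, 298, 230 and 238 CPM, and PFOS libraries 296, 225, 237 and 276 CPM. Inulin libraries contained 566, 479 and 316 CPM, and Inulin_PFOS libraries 304, 408 and 371 CPM. Pectin libraries contained 419, 230, 397 and 205 CPM, and Pectin_PFOS libraries 683, 430, 290 and 310 CPM. In CPM every Inulin_PFOS library was above every PFOS library, and the other pairs overlapped. In TPM Inulin_PFOS (154.6 to 233.6) and PFOS (173.6 to 262.7) overlapped as well. Against Control, the log2 fold change in Inulin was 0.70 ± 0.30 (adjusted p = 0.195 in edgeR), and against PFOS it was 0.48 ± 0.30 in Inulin_PFOS (0.374) and 0.73 ± 0.28 in Pectin_PFOS (0.0756). Its close relative Aldh1a7, with which 5.70% of its 31-base words are shared, was not called in any comparison, and its log2 fold change with PFOS over the diets was 0.08 ± 0.18.

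Counted over the 8 genes, with overlap judged by CPM, the other comparisons gave no call in edgeR. In PFOS against Control 0 were called and 0 of 8 were free of overlap, against 0% and 2.16% of all genes, 842 of which had an unadjusted p under 0.05. DESeq2 called 1 gene of the whole table there and limma none. In Inulin against Control 0 were called and 0 were free of overlap (0% and 9.83% of all genes, where 3257 had p below 0.05 before adjustment, DESeq2 called 783 and limma none). In Pectin against Control 0 were called and 1, Lrat, was free of overlap (1.99% and 8.23%). In Inulin_PFOS against Inulin 0 were called, where 0.159% of all genes were, and 5 were free of overlap where 24.4% were. Of those 5, Adh1 and Isx were higher and Lrat, Bco1 and Rdh7 lower. DESeq2 called Adh1 and Lrat in that comparison, among 506 genes in all. In the same pair of groups no enterocyte marker was called and 11 of 12 had a negative fold change, with sums of 38770 to 53730 CPM in Inulin_PFOS and 53870 to 59990 CPM in Inulin. All 4 goblet, 4 Paneth, 6 fibroblast and 6 smooth muscle markers had a positive one and none was called. Sums were apart for goblet (7760 to 13180 against 4750 to 6281 CPM), Paneth (1737 to 3608 against 898.7 to 1722) and fibroblast markers (341.1 to 512.8 against 177.4 to 311.4) and overlapped for smooth muscle (3065 to 9256 against 1126 to 3863). The part of these lists in the 5 genes' values was not tested.

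Between exposed groups, 0 of 8 were called in Inulin_PFOS against PFOS (2.64% of all genes). In CPM 3 were free of overlap (26.4%), Aldh1a1 higher and Lrat and Rdh7 lower. In Pectin_PFOS against PFOS 0 were called and 0 were free of overlap (16% and 26.5%). For both interactions of PFOS with fibre 0 of 8 and 0% of all genes were called by edgeR, and before adjustment 3099 genes had p below 0.05 for inulin and 1953 for pectin. DESeq2 called 659 and 119 genes in these, Rdh7 among them for inulin, and limma none. Leaving out Control 1 gave 794 calls over all genes in Inulin against Control and 755 in the inulin interaction, none among the 8. Comparisons with a group in common share those libraries.

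The rest of the pathway was taken from 6 lists with 55 genes, of which 54 were matched and 44 tested. None of the 44 was called in PFOS against Control, Inulin against Control, Pectin against Control, Inulin_PFOS against Inulin, either interaction or the averaged PFOS contrast. Between Pectin_PFOS and Pectin 7 of the 44 were called higher and 2 lower, where 20.8% of all genes were called and 11.4% were called higher. Together these calls are close to the share of all genes, so their number is not a result about the pathway. The retinoic acid receptor Rara stood at 34.9 to 52.6 CPM in Pectin_PFOS against 20.4 to 22.6 CPM in Pectin (log2 fold change 0.89 ± 0.19, adjusted p = 0.00569 in edgeR), and Rxra, the partner of retinoic acid receptors, was also higher. Gata5, an intestinal GATA factor, stood at 138.8 to 168.8 against 70.6 to 94.3 CPM (0.87 ± 0.23, adjusted p = 0.0139 in edgeR). Rbp7, a retinol-binding protein, was lower, at 1.46 to 2.31 against 4.78 to 5.61 CPM (−1.48 ± 0.35, adjusted p = 0.00885 in edgeR). Other calls were Dgat1 (an acyltransferase that can also esterify retinol), Rdh9 and the homeobox factor Cdx2 higher and the lipid transporter Cd36 lower. Rara, Gata5 and Rbp7 were each called in all 22 fits with a library left out. Without the 4 libraries above 10 CPM of Gata4, and so with fewer libraries in both groups, the call of Gata5 was lost. By list, 3 of 8 intestinal transcription factors, 2 of 5 retinoid receptors, 1 of 13 dehydrogenases and 1 of 13 genes of uptake, esters and carriers were called higher, 2 of the last list were lower, and none of 3 genes of retinal oxidation or 2 of retinoic acid binding and clearance was called. These lists are short, and whether calls gathered in any of them was not tested. The marker shifts given above for these groups apply here, and their part was not tested.

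**Figure D4:**
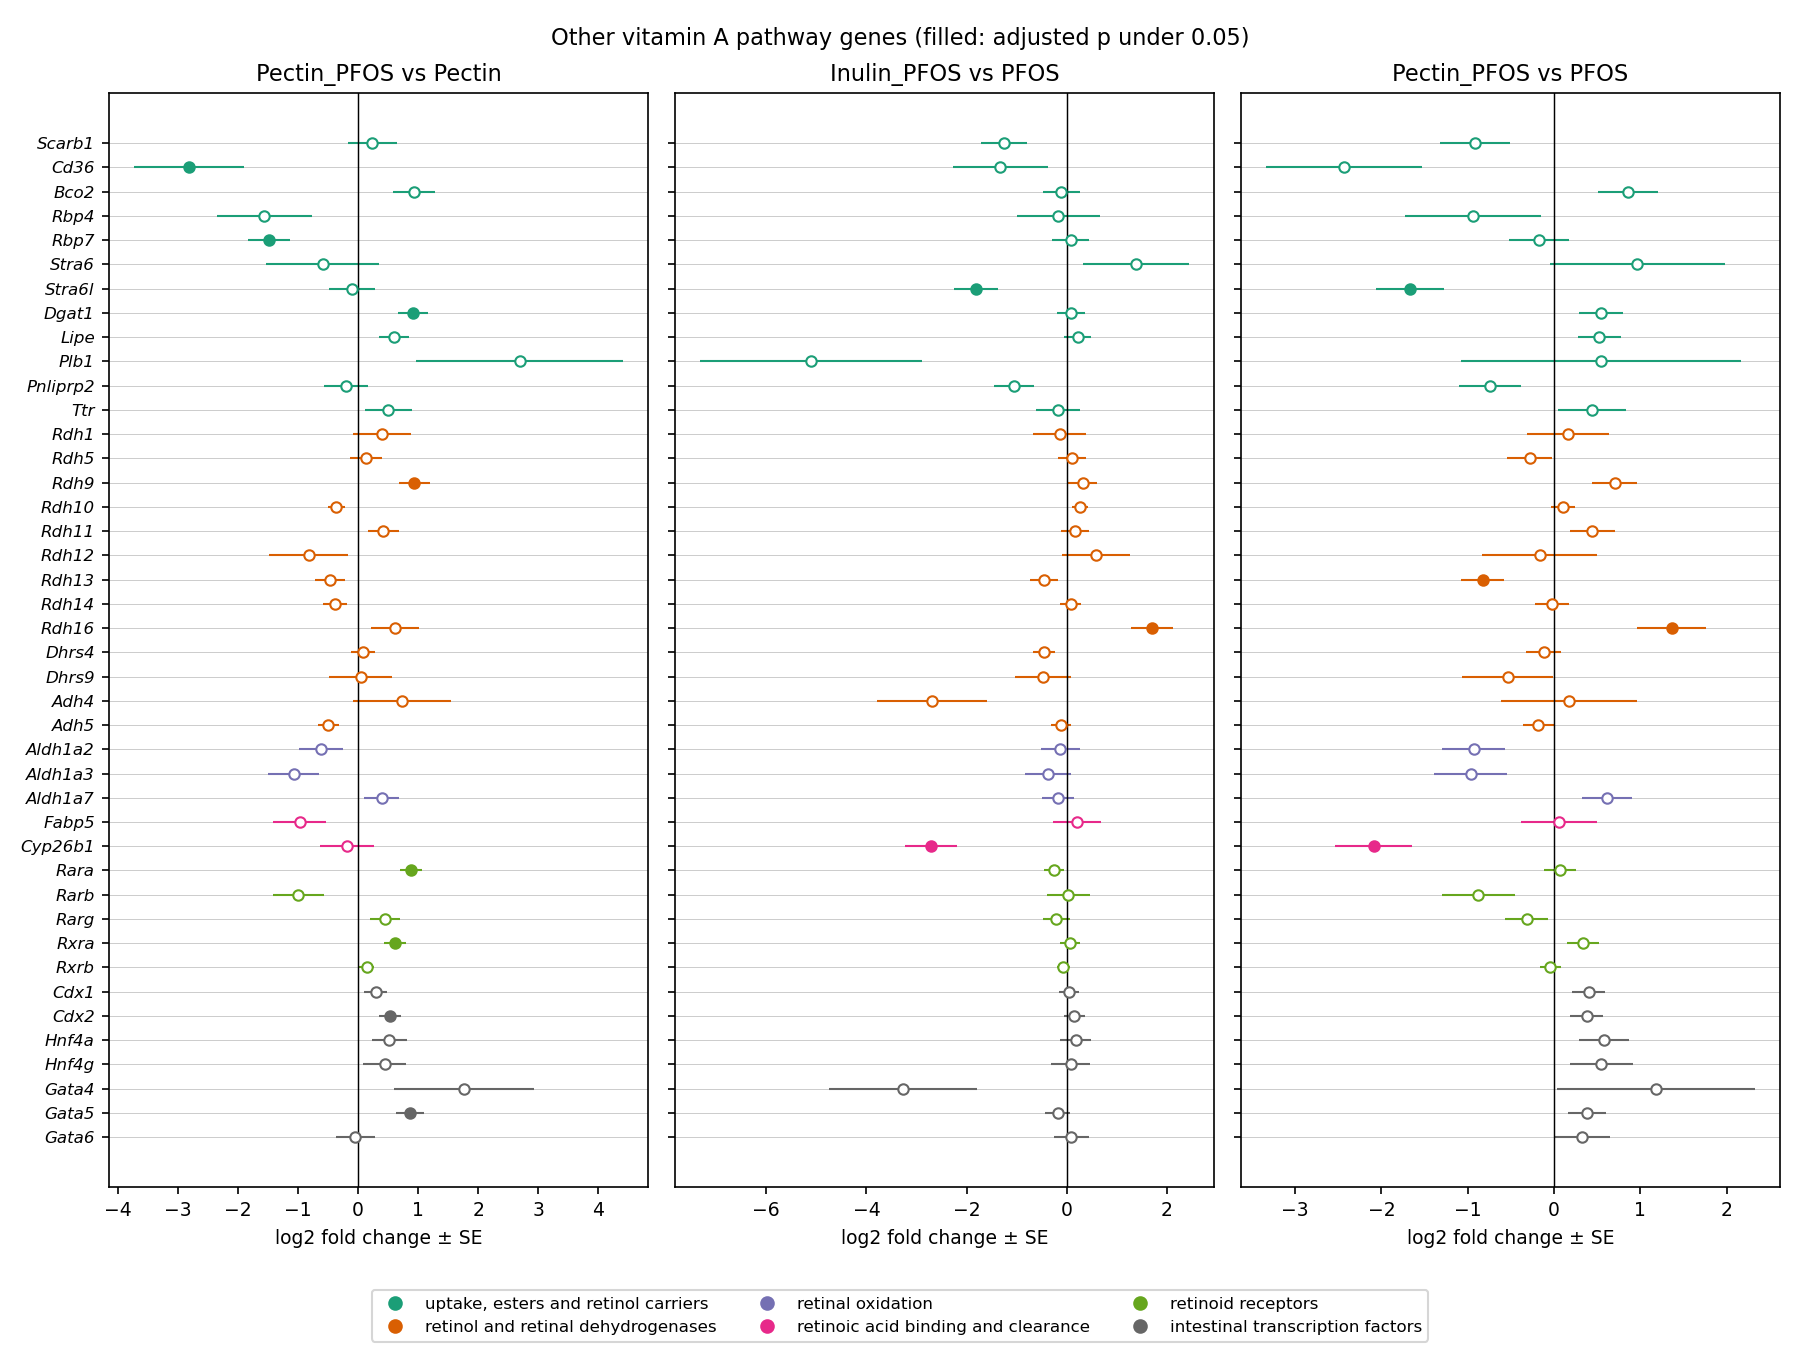
Log2 fold change ± SE of 42 tested genes of the other vitamin A lists in Pectin_PFOS against Pectin, Inulin_PFOS against PFOS and Pectin_PFOS against PFOS, coloured by list and filled where edgeR's adjusted p was under 0.05. Filled points number 8, 3 and 4, with Cyp26b1 and Stra6l lower in both comparisons with PFOS.

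Among exposed groups, the retinoic acid-degrading enzyme Cyp26b1 was lower with inulin and with pectin than with cellulose. PFOS libraries had 5.68, 8.82, 2.74 and 2.35 CPM, Inulin_PFOS libraries 0.963, 0.828 and 0.433 CPM, and Pectin_PFOS libraries 0.725, 0.585, 1.63 and 1.62 CPM. The PFOS range overlapped neither of the others. The log2 fold change was −2.71 ± 0.52 in Inulin_PFOS and −2.09 ± 0.45 in Pectin_PFOS (adjusted p = 0.00887 and 0.00575 in edgeR), and the PFOS libraries are common to both. The call in Inulin_PFOS was lost without Inulin_PFOS 3 (adjusted p = 0.0568 in edgeR), the only library whose omission did so. Unexposed libraries had 0.903 to 2.66 CPM of Cyp26b1 in Control, 0.948 to 1.335 in Inulin and 0.9445 to 1.858 CPM in Pectin. Its counts were low, at 8 to 17 in Inulin_PFOS and 10 to 31 in Pectin_PFOS, against 49 to 183 in PFOS. In Pectin_PFOS against PFOS, where 16% of all genes were called, 4 of 6 fibroblast markers (Col1a2, Col3a1, Pdgfra and Dcn) were also lower, and 3 of 12 enterocyte and 3 of 4 goblet markers higher. Summed fibroblast markers were at 110.5 to 208.7 against 351.7 to 501.7 CPM. In Inulin_PFOS against PFOS, where 2.64% were called, no fibroblast or enterocyte marker was called and 2 of 4 goblet markers were higher, with summed fibroblast markers at 341.1 to 512.8 CPM. Their part in the values of Cyp26b1, Stra6l and Rdh16 was not tested. Stra6l, a relative of the retinol transporter gene Stra6, was lower too, at log2 fold changes of −1.81 ± 0.44 and −1.67 ± 0.39 (adjusted p = 0.0301 and 0.00903 in edgeR). Its PFOS libraries had 23.2, 18.3, 17.1 and 5.94 CPM, against 4.31 to 5.21 CPM in Inulin_PFOS and 3.23 to 6.48 CPM in Pectin_PFOS, which PFOS 4 overlapped. Its call in Inulin_PFOS was lost when any 1 of PFOS 1, 2 or 3 or of the Inulin_PFOS libraries was left out. Rdh16, a retinol dehydrogenase, was higher, at log2 fold changes of 1.70 ± 0.43 and 1.36 ± 0.40 (adjusted p = 0.0361 and 0.0273 in edgeR), and its call in Inulin_PFOS was lost with a replicate block (adjusted p = 0.0818 in edgeR). Its calls were lost in Inulin_PFOS without any 1 PFOS or Inulin_PFOS library or Pectin_PFOS 4, and in Pectin_PFOS without PFOS 2 or 3 or Pectin_PFOS 1 or 2. PFOS libraries had 26.9, 7.95, 23.3 and 21.5 CPM of Rdh16, Inulin_PFOS libraries 63.8, 83.4 and 47.0 CPM and Pectin_PFOS libraries 51.1, 70.8, 30.5 and 52.2 CPM, with no overlap. In Pectin_PFOS against PFOS another retinol dehydrogenase gene, Rdh13, was lower. Scarb1, the carotenoid uptake receptor that ISX represses, was not called anywhere and averaged 5.38 ± 1.40 CPM (SD, n = 4) in PFOS and 3.05 ± 1.08 CPM (SD, n = 4) in Control.

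The genes whose log2 CPM followed each of the 8 most closely over the 22 libraries were sought among 12600 genes, by Pearson correlation, as a description. Adh1 was followed by another alcohol dehydrogenase gene, Adh6a (r = 0.757), then by H2-Q1 (0.693) and Thsd4 (0.646). Rbp2 was followed by the apolipoprotein genes Apoc3 (0.921) and Apoa4 (0.863) and by Tlcd2 (0.878). For Rdh7 the closest were Slc25a45 (0.892), Ano6 (0.881) and Pbld2 (0.865), and for Bco1 Mfhas1 (0.919), Bglap3 (0.914) and Cables1 (0.909). Lrat was closest to Zmat4 (0.902), Olfr165 (0.895) and Ago4 (0.869), and Aldh1a1 to Mkrn1 (0.889), Mpp1 (0.871) and Mb21d2 (0.859). Dhrs3 was closest to Deaf1 (0.897), Zfp768 (0.886) and Aqp11 (0.871), and Isx to Sestd1 (0.804), Herpud1 (0.790) and Mfsd1 (0.773). These libraries share their groups and their mix of cells, which the correlations include.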

How the data were processed

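RNA-seq of 22 libraries of whole intestinal tissue was analysed from gene tables. The authors deposited expected counts per gene and TPM for each library. Per the submitters' processing notes, HISAT and Bowtie2 were used with GRCm39, while 38860 of 46005 genes shared with a GRCm38 annotation have the same start and end as in the tables, so coordinates are given as GRCm38. The program that made the expected counts and its strand setting are not stated by any label or header. The library preparation was stranded, per the labels.

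Expected counts were rounded to whole numbers (3.84% to 4.85% of values per library were fractional). Genes were filtered with filterByExpr, which kept 15763 of 46603, and scaled by TMM. One group-means model over the 6 groups was fitted with edgeR 4.0.16 in R 4.3.3 (robust quasi-likelihood F test), and p-values were adjusted over all tested genes by Benjamini-Hochberg with a threshold of 0.05. The common dispersion of 0.102, a coefficient of variation of 31.9% between samples of a group, sets the precision more than depth does. In all, 10 contrasts were tested, namely 7 between groups, 2 interactions and the PFOS effect averaged with equal weight over the 3 diets. Fold changes are log2 values of the edgeR model, computed here from the deposited counts with edgeR's default prior count. A prior count of 2 was used only for the log2 CPM behind the correlations. TPM values as deposited were used for levels between genes and, as log2(TPM + 1) or log2(TPM + 0.1), in limma 3.58.1. Other settings were RLE size factors, library totals, no filter, DESeq2 1.42.0, only the groups compared, a replicate block, and each library left out in turn. The fits were tested on simulated data.

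The 8 genes, the pathway lists and the marker lists were chosen with earlier results of these data known. Named in the text are the 8 genes, of the other pathway genes up to 4 called per comparison in order of p with Aldh1a7 and Scarb1 throughout, and 3 genes of like pattern for each of the 8. Other called pathway genes are named because their counts are small. Like patterns were sought among genes averaging at least 1 CPM, leaving out predicted genes. Values of 2 pathway genes that this rule names are not reported here.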

Additional observations from a re-analysis of the deposited data

Results flagged for a closer look

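Of 32 sets of 4 libraries examined, each a gene in a group, 1 stood out by the gap of its extreme sample, and chance alone sets apart about 1 in 20. Rdh7 in PFOS 4 was at 239 CPM, with the nearest PFOS library at 50.4 and the lowest at 27.1 CPM, so that the gap took 0.890 of the range against a critical ratio of 0.829. PFOS 4 also had Gata4 at 32.2 CPM and the lowest Bco1. No label gives its position along the intestine, and any part of position in the Rdh7 value was not tested.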

How the results depend on the processing

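The call of Adh1 in the averaged PFOS contrast held under every planned change of scaling, filter, tool and block (log2 0.90 to 0.96) and with each library left out (0.86 to 1.02), and was lost without the 4 libraries above 10 CPM of Gata4, a setting chosen after seeing the data, which left 0 of the 8 genes called. In Pectin_PFOS against Pectin, the 2 calls became 0 with library totals, without the filter, with limma on either pseudocount and without those 4 libraries, and the 9 other pathway calls became 4 in limma and 3 without those libraries. In Inulin_PFOS against Inulin DESeq2 called 2 of the 8. In Inulin_PFOS against PFOS, the count of 0 became 1 with library totals, DESeq2 (Rdh7 in both) and the compared groups alone (Lrat), and 3 in limma with either pseudocount (Dhrs3, Lrat and Rdh7), and the 3 pathway calls became 8 and 7 in limma. In Pectin_PFOS against PFOS, the count of 0 became 1 with library totals and limma (Adh1), and with DESeq2 and without the 4 libraries (Aldh1a1), and the 5 pathway calls became 12 with library totals, 8 with the compared groups alone and 11 in limma. DESeq2 called 1 of the 8 (Rdh7) and 1 pathway gene (Stra6l) in the inulin interaction, 1 pathway gene in the pectin interaction, 2 in the averaged contrast, 3 in Inulin against Control and 2 in Pectin against Control. The cause was not tested. With each library left out in turn, calls among the 8 ran from 0 to 1 in Inulin_PFOS against Inulin and from 0 to 3 in Pectin_PFOS against Pectin, stayed at 1 in the averaged contrast and at 0 elsewhere. Pathway calls ran from 5 to 12 in Pectin_PFOS against Pectin, 0 to 3 in Inulin_PFOS against PFOS, 2 to 8 in Pectin_PFOS against PFOS, 0 to 2 in Pectin against Control, 0 to 1 in Inulin against Control and in the inulin interaction, and 0 elsewhere. Library totals moved the split of all calls from 1790 higher and 1487 lower to 576 and 2386 in Pectin_PFOS against Pectin, and moved the median of all genes to −0.34 in Inulin_PFOS against PFOS and −0.41 in Pectin_PFOS against PFOS. Over all settings, the count of all genes called ran from 516 (without the 4 libraries) to 4051 (DESeq2) around 3277 in Pectin_PFOS against Pectin, 75 (without PFOS 2) to 3101 (limma) around 416 in Inulin_PFOS against PFOS, 1266 (without PFOS 3) to 3918 (limma) around 2526 in Pectin_PFOS against PFOS, 37 (without the 4 libraries) to 856 (DESeq2) around 313 in Pectin against Control, 0 (compared groups alone) to 506 (DESeq2) around 25 in Inulin_PFOS against Inulin, and 6 (without Inulin 1) to 206 (DESeq2) around 25 in the averaged contrast. By the replicate number used here, 14 of 51 same-numbered pairs correlated above 0.1, and 5 of 22 libraries correlated best with their own number. The median correlation was 0.03 for same-numbered pairs, the highest of which was 0.514, and −0.022 for the others. Deviations from means of so few libraries cannot decide whether samples were paired, and the numbers in the sample names were not examined. With the replicate block, calls among the 8 stayed at 2 in Pectin_PFOS against Pectin, 1 in the averaged contrast (Adh1, 0.95, adjusted p = 0.0221 in edgeR) and 0 elsewhere, and pathway calls were 11, 2 and 7 in Pectin_PFOS against Pectin, Inulin_PFOS against PFOS and Pectin_PFOS against PFOS. Bco1 fell to 49 counts and Lrat to 83 in their lowest libraries, so these were the least precisely counted of the 8 genes.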

Other observations

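The 4 libraries above 10 CPM of Gata4 also had Plb1, a brush border lipase gene, at 186 to 952 CPM, against 0.369 to 29.1 CPM in the other 18. Slc10a2, the ileal bile acid transporter gene, stood at 32.3 to 191 CPM in those 4 and at 88.6 to 522 CPM in the others. Rdh7 spanned 30.2 to 239 CPM and 9.52 to 91.4 CPM in the same libraries, and Adh1 30.8 to 72.5 CPM and 20.4 to 88.7 CPM. These libraries were singled out after their values were seen, and no difference between them and the others was tested.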
